A study of Mus musculus with 4 samples.

Results

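Transverse aortic constriction (TAC) is a surgical narrowing of the aorta that makes the left ventricle pump against raised pressure. FoxO1 chromatin immunoprecipitation and sequencing (ChIP-seq) of hearts after TAC was set against the same assay after vehicle and a sham operation (Veh/Sham), over every one of the 16126 merged regions of 16126 in the deposited table. No region of that table was left out for its values. For each region the mean FoxO1 signal gave the log2 of (TAC + 1)/(Veh/Sham + 1), and the median of this log2 ratio over all regions was subtracted, so that a centred ratio of 0 marks a region that stood at the middle of all regions. The 2 libraries, of 4 samples in the series, came from wild type male C57BL/6 mice aged 12 weeks, taken 7 days after TAC or at the same time under Veh/Sham. Each library was made from the chromatin of 3 pooled hearts with an anti-FoxO1 antibody, with Drosophila chromatin added as a spike-in. A library after isoproterenol (Iso, a beta-adrenergic agonist, 3 mg/kg per day for 7 days) did not enter the ratio and served here to rank regions by level, as 1 of 3 libraries in choosing the region of a gene, and as a value beside the immunoglobulin regions, and the input library, pooled from all conditions, was not analysed here. There was 1 library a side, so no spread between replicates and no test exist: every difference below is a difference between 2 libraries. Intervals of peak depth ratios cover counting error only, and order-statistic intervals of medians cover the spread over regions only. In whole-heart chromatin, fewer cells of a type and less signal per cell cannot be told apart.

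FoxO1 is a forkhead transcription factor. Insulin and growth factor signalling through Akt phosphorylates it and sends it out of the nucleus, and when this signal falls it returns and acts at genes of stress resistance, autophagy, cell cycle arrest and metabolism. In the heart it is studied for its part in growth of the muscle cell under load and under adrenergic drive, in which calcineurin and NFAT also act.

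The promoter sequences that go with the highest and the lowest ratios are shown first, because they let the letters at both ends be read beside the values given further on. The windows are from RefSeq (GRCm38.p6, 250 bases before to 50 after the start of the gene), written 5′ to 3′ on the strand of the gene. Capitals mark, on either strand, the forkhead motif GTAAACA and its variant form GTAAATA, the core of the insulin response element, CAAAACA, the motif of ETS factors, CCGGAAG, the cAMP response element, TGACGTCA, the E-box CACGTG bound by helix-loop-helix factors, the AP-1 motif TGANTCA and the TATA box as TATAAA. None of these motifs holds another within it. Psmd2 (chr16:20651402-20651701, plus strand) and Trib3 (chr2:152344011-152344310, minus strand) belong to the highest ratios among promoter regions with a CpG island, and Zfp280d (chr9:72274638-72274937, plus strand) to the lowest. Foxo1 (chr3:52268087-52268386, plus strand) is the gene of the factor itself. Akr1b10 (chr6:34383997-34384296, plus strand) and Mbtps1 (chr8:119558712-119559011, minus strand) are windows that hold GTAAACA from the top and the bottom of the ratio, and they and the Foxo1 window were picked after the values had been seen.
Psmd2: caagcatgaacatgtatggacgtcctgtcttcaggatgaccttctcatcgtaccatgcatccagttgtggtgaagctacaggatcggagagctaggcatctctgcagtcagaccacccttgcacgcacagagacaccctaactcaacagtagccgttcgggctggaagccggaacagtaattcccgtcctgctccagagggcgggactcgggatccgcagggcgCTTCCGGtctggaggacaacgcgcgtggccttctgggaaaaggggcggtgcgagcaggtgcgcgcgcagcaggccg
Trib3: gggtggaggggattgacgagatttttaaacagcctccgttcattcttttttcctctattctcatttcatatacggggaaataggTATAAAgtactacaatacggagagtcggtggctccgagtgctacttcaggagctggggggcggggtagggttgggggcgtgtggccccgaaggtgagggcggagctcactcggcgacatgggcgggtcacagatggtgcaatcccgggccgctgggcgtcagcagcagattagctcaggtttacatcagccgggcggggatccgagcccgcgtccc
Zfp280d: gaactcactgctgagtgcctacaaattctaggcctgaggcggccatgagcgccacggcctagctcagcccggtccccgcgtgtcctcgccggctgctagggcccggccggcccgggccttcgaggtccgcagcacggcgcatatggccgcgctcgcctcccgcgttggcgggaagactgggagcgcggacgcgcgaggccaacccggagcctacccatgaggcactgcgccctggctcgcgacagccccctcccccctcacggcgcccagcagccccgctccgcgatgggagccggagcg
Foxo1: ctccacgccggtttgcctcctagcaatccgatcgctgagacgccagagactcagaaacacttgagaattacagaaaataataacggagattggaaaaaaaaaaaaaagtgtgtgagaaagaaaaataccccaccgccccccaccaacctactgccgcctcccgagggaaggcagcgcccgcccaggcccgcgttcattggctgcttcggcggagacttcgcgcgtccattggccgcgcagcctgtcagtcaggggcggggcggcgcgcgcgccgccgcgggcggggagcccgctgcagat
Akr1b10: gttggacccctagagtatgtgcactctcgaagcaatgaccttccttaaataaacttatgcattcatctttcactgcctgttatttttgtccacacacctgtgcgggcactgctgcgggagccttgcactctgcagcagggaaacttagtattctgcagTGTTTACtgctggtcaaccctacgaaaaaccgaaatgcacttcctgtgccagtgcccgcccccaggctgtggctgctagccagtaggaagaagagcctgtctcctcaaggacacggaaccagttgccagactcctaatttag
Mbtps1: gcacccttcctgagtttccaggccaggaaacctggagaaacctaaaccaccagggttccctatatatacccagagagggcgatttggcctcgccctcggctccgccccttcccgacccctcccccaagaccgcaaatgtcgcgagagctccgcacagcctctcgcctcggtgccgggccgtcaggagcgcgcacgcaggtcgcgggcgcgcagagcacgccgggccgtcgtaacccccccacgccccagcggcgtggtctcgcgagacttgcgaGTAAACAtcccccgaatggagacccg
The windows of Akr1b10 and Mbtps1 each hold the forkhead letters, as TGTTTAC and as GTAAACA, and lie at opposite ends of the ratio. Akr1b10, an aldo-keto reductase, read 10.6 in TAC and 2.57 in Veh/Sham (centred log2 ratio 1.11). Mbtps1, the site-1 protease that activates the SREBP factors, read 8.29 in TAC and 17.9 in Veh/Sham (-1.61). The windows of Foxo1 and Zfp280d hold none of the motifs that capitals mark. GGGCGG and CCAAT, counted further on, are not marked here. The Foxo1 window holds GGGCGG 5 times over both strands, and CCAAT as well.

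FoxO1 signal in the TAC library was higher at most regions, and the regions differed widely around that shared shift. The median of the mean signal over a region was 13.96 in TAC and 8.71 in Veh/Sham. The median log2 ratio before centring was 0.59 (1.502-fold), and 13390 regions (83.03%) were above 0. The sources used here do not give how the deposited values were scaled between libraries or whether the spike-in entered, so the shared shift cannot be told apart from scaling, and all ratios that follow are centred. From 25 to 75% of the regions lay between -0.40 and 0.43, and 5 to 95% of them between -1.08 and 1.19. At least 1.5-fold higher in TAC were 2968 regions (18.4%), at least 1.5-fold lower 2736 (17.0%), and 10422 lay between. A 2-fold difference was passed by 1239 regions upward and 1022 downward, and a 4-fold difference by 105 and 71. Both tails were therefore of similar size. The ratio of the highest depths in a region followed the ratio of means across regions (Pearson's r = 0.936 across 16126 regions, which share their libraries and are not replicates). Counting error was large at the size of these regions: of the 2968 higher regions 728 (24.53%) had a ratio of peak depths whose exact 95% counting interval lay above 1.431, the ratio of all summed peak depths, and of the 2736 lower regions 556 (20.32%) had one below it.

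Gene bodies close to a start site stood highest of the region classes, and promoters with a CpG island slightly below the middle. Classes were disjoint and came from the deposited annotation. The 1123 regions inside a gene, more than 1000 and up to 10000 bp from its start and with no CpG island, had a median signal of 12.9 in TAC and 6.78 in Veh/Sham. Their median centred ratio was 0.19 (order-statistic interval over regions 0.14 to 0.26, which holds no error between hearts), with 32.24% higher and 13.45% lower, against 18.4% and 17.0% of all regions. The 7541 promoter regions with a CpG island had a median of -0.03, with 14.3% higher and 15.4% lower. Promoters without an island (1161 regions, median -0.01), islands outside promoters (1186, 0.03), gene flanks (1131, 0.06) and distal gene bodies (2215, 0.05) lay between these classes. Regions with no assigned gene (1769, median -0.03) differed from the other classes in their lower tail, with 19.7% higher and 23.7% lower. The step between classes was smaller than the spread within any of them.

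**Figure D1:**
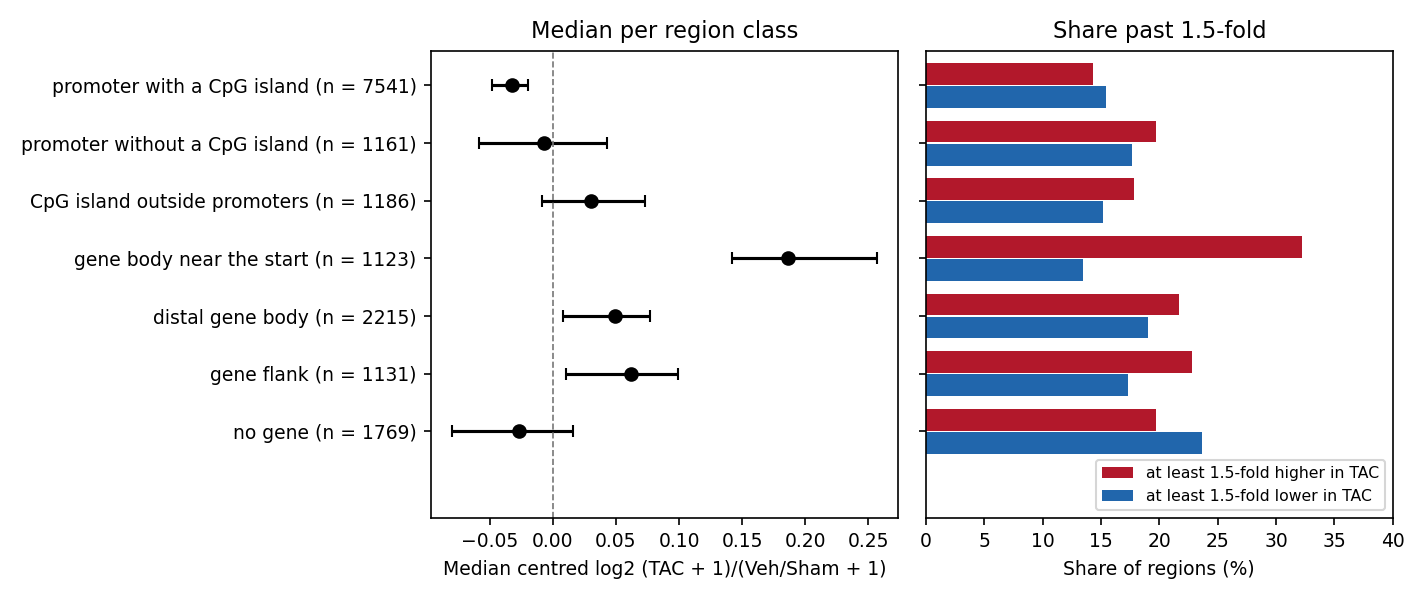
Centred log2 ratio of TAC to Veh/Sham in 7 disjoint region classes. Left, the median of each class with its 95% order-statistic interval over regions (not an error between replicates); right, the share of regions at least 1.5-fold higher (red) or lower (blue) in TAC. Gene bodies near the start stand apart with a median of 0.19 and 32.24% of regions higher, and the other medians lie between -0.03 and 0.06.

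Gene bodies near the start were above promoters with an island also when regions of like signal or like length were set side by side. In the lowest of 5 equal groups by Iso signal, gene bodies near the start had a median of 0.46 with 44.37% higher, and promoters with an island a median of -0.08 with 20.11% higher. In the highest group the medians were 0.03 for gene bodies near the start and -0.16 for promoters with an island. The near-start gene bodies were above the island promoters in each of the 5 levels, but they were not the highest of the 7 classes in each: in the third level promoters without an island had a median of 0.13 and near-start gene bodies 0.10, and in the fourth, gene flanks had 0.09 and near-start gene bodies 0.03. By length, their medians were 0.25 against 0.08 in the shortest of 5 groups and 0.12 against -0.07 in the longest. They were above in each of the 5 lengths as well. The order-statistic intervals of the 2 classes overlapped in the third level (-0.07 to 0.23 against 0.00 to 0.08). They also overlapped in the fourth (-0.06 to 0.18 against -0.03 to 0.02), and in no other level or length. The part of level and length in the difference was not tested.

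Position along the gene gave a profile with its low point at the start site. Regions lying from 250 to 100 bp upstream had a median of -0.11, those in the last 100 bp before the start -0.11 and those in the first 100 bp after it -0.10. Downstream the median was 0.00 from 100 to 250 bp, 0.06 from 250 to 500 bp, 0.17 from 500 to 1000 bp and 0.19 from 1000 to 2000 bp, where 30.5% of 488 regions were higher in TAC. It was 0.16 from 2000 to 5000 bp and 0.07 from 10000 to 20000 bp. Upstream it was 0.08 from 1000 to 500 bp and 0.12 from 10000 to 5000 bp. The ratio was thus lowest over the start and higher on both sides of it, with the highest medians a short way into the gene. From 500 to 1000 bp inside the gene 80.4% of regions held a CpG island, and in the 100 bp after the start 88.61% did. The share was 47.13% from 1000 to 2000 bp, where the median was highest, and 25.78% from 2000 to 5000 bp. Island content thus did not follow the medians step by step. Its part in the profile was not tested.

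**Figure D2:**
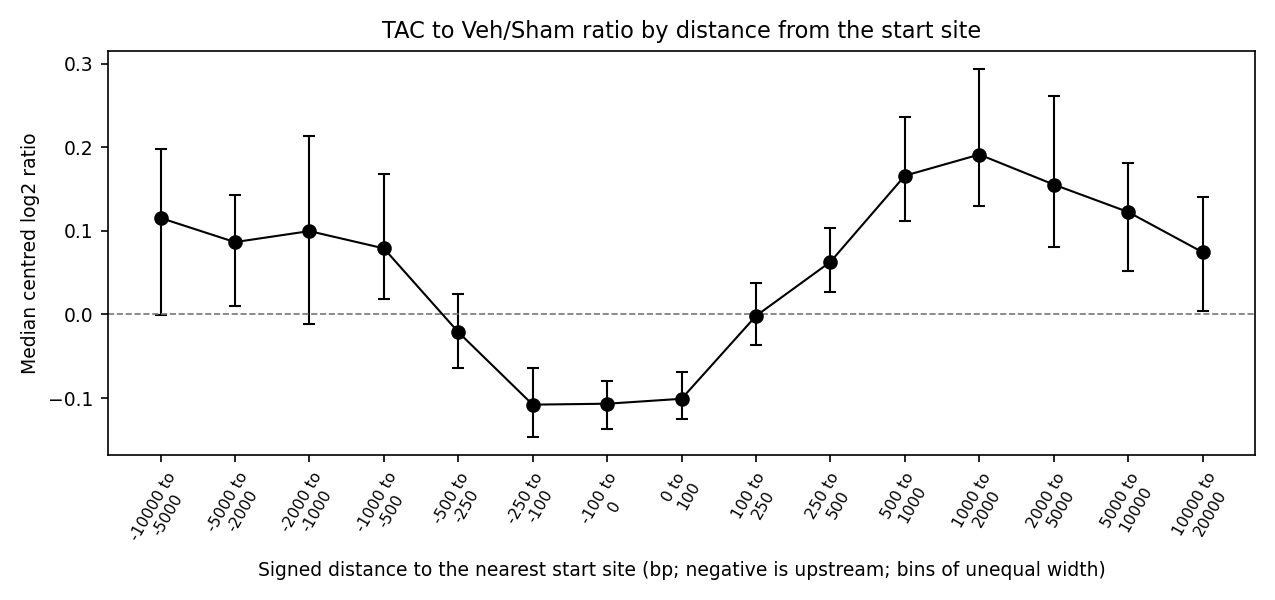
Median centred log2 ratio of TAC to Veh/Sham by signed distance of the region to its nearest start site, in bins of unequal width, with 95% order-statistic intervals over regions. The medians are about -0.10 over the start site and peak at 0.19 from 1000 to 2000 bp downstream.

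The spread of the ratio differed with signal level and length. Across the 5 groups of Iso signal the median ratios were 0.04, 0.08, 0.04, 0.02 and -0.13 from the lowest to the highest. The share higher in TAC was 26.9% in the lowest group and 9.40% in the highest, and the share lower was 23.5% and 15.5%. In the highest group alone lower regions outnumbered higher ones, 499 to 303. Across 5 groups of length the median was 0.12 for the shortest regions and -0.04 for the longest, and the share higher 29.3% and 5.67%. Ratios past 1.5-fold were therefore most frequent in short regions and in regions of low signal, where few fragments lie behind each value.

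**Figure D3:**
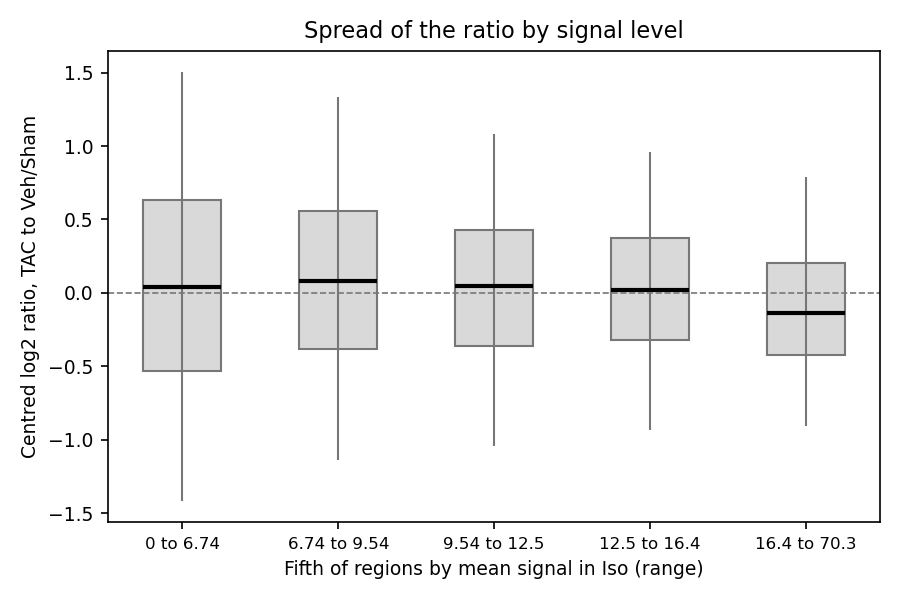
Centred log2 ratio of TAC to Veh/Sham in 5 equal groups of the regions ranked by Iso signal, a library that is not in the ratio. Black lines are medians, boxes 25 to 75% and grey lines 5 to 95% of regions; the range is -1.42 to 1.5 in the lowest group and narrower in the highest, -0.91 to 0.79, where the median is -0.13.

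Interval calls by the authors rest on the same 2 libraries as the ratio, so a match between them is built in and supports nothing. The calls are given as a description. Both libraries had a call in 4947 regions, with a median ratio of -0.03, and 167 of these were higher and 311 lower. A call in TAC alone (2314 regions) went with a median of 0.79 and 1592 higher regions, and a call in Veh/Sham alone (2971) with a median of -0.63 and 1597 lower ones. The other 5894 regions had a call in neither library, and 1209 of them were higher and 828 lower in TAC. Regions called in both libraries were long, with a median of 752 bp, and differed least, so the large ratios lay mostly where 1 library or neither had a call.

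The extreme regions were then read by name, among those at or above the median Iso signal (11), a filter that uses neither library of the ratio and kept 8070 regions. Of these, 1042 (12.9%) were higher and 1149 (14.2%) lower. The 12 highest, 1 per gene, had between 7.63 and 133.9 in TAC and between 0 and 3.94 in Veh/Sham, where the median of all regions was 8.71. They stood high through low Veh/Sham values more than through high TAC values, with Igkc as the exception. The 12 lowest had between 1.11 and 7.33 in TAC and between 9 and 19.6 in Veh/Sham. Of the 12 highest, 7 lay in gene bodies and 4 at promoters, and 7 were called in TAC and 0 in Veh/Sham. Of the 12 lowest, 8 lay in gene bodies and 1 at a promoter, and 0 were called in TAC and 11 in Veh/Sham. Each of these regions was picked for its ratio, so a counting interval beside it describes depth and tests nothing.

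Immunoglobulin constant genes had the highest TAC signal of the whole table. Igkc encodes the constant part of the kappa light chain, and its region (chromosome 6, 70726320 to 70726865) read 133.9 in TAC and 3.94 in Veh/Sham, with peak depths of 234 and 6 (ratio 39.0, counting interval 17.7 to 107). Ighg1, a heavy chain gene of IgG (chromosome 12, 113328871 to 113329836), had 121.1 in TAC with Veh/Sham listed at 0; its peak depth of 190 was at least 63.3-fold over a floor of 3 counts. The neighbouring Ighg2c held 98.0 in TAC and 1 in Veh/Sham in the region 141 bp from its start, and 52.1 and 0 in the region 865 bp from it, where the peak depth of 84 was at least 28.0-fold over the floor. The Iso library read 12.8, 2.70, 7.88 and 5 in these 4 regions, far under TAC. Non-immunoglobulin genes of B and plasma cells did not move together with them. Of 20 such genes 7 had a region, with a median of -0.04, 1 higher and 1 lower. Prdm1, the plasma cell factor Blimp-1, read 20.1 in TAC and 3.80 in Veh/Sham (1.55), and Sdc1, the plasma cell surface protein syndecan-1, read 2.83 and 8.17 (-1.84). Summed over the 6 of 12 B and plasma cell markers with a region, immunoglobulin genes included, signal was 314.8 in TAC and 45.0 in Veh/Sham. Among the markers with no region were Cd79b, Ms4a1, Ighm, Jchain and Mzb1. The part of B lineage cells in these 4 regions was not tested.

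The genes of the other high regions had varied functions. Stk10 is a kinase of proteins that tie the cell membrane to actin, and its region (chromosome 11, 32561761 to 32562027) read 24.0 in TAC and 2.63 in Veh/Sham, a centred ratio of 2.2. The start of Psmd2, a subunit of the regulatory particle of the proteasome (chromosome 16, 20651532 to 20651936), whose promoter is printed above, read 21.2 in TAC and 2.30 in Veh/Sham (2.16; peak depths 27 and 3, ratio 9, counting interval 2.77 to 46.4). Both had signal well below the median of the Veh/Sham library and above that of the TAC library. The start of Trib3, a stress-induced pseudokinase that binds Akt, read 18.3 in TAC and 2.33 in Veh/Sham (1.95), and had a call in neither library. Epha2, an ephrin receptor, read 11.3 in TAC and 1 in Veh/Sham (2.04) in a region 24627 bp into the gene. Pxn, the focal adhesion protein paxillin, read 20.4 and 2.71 (1.94). Cerk, the ceramide kinase, read 22.3 in TAC and 2.83 in Veh/Sham (2.02), Man2a1, a mannosidase of the Golgi, 11.8 and 1 (2.09), and Palmd, palmdelphin, 20.8 and 2.33 (2.12). The region shared by Smagp and Dazap2 read 30.4 in TAC and 3.57 in Veh/Sham (2.19), that of Tpst2, a protein tyrosine sulfotransferase, and Tfip11 13.9 and 1.60 (1.93), and that of Agap3 and Tmub1 7.63 and 0 (2.52 with the pseudocount; its peak depth of 13 was at least 4.33-fold over a floor of 3 counts). The regions of Agap3 and Tmub1, Epha2, Man2a1, and Tpst2 and Tfip11 also had TAC signals under the median of that library (13.96), and the other high regions named had TAC signals above it.

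The genes of the 12 low regions had varied functions. Cep85l, a centrosome gene (chromosome 10, 53324765 to 53325054), read 1.11 in TAC and 11 in Veh/Sham, with peak depths of 2 and 14 and a centred ratio of -3.09. Il22ra2, the soluble receptor that binds interleukin-22, read 2.92 in TAC and 15.0 in Veh/Sham (-2.62). Cyp2c44, a cytochrome P450 that makes epoxides of arachidonic acid, read 2.70 and 12.4 (-2.44). In these regions TAC stood far under its own median and Veh/Sham above its own. The secreted serine proteases Htra3 and Htra1 were both among the 12: Htra3 read 4 in TAC and 15.5 in Veh/Sham (-2.31), and Htra1 5.63 and 15.3 (-1.88). Eva1a, which regulates autophagy, read 3.00 in TAC and 12.9 in Veh/Sham (-2.38), and Steap3, a ferrireductase of endosomes, 2.60 and 9 (-2.06). Atrx, a chromatin remodeller on chromosome X, read 3.10 in TAC and 9.30 in Veh/Sham (-1.92). Mbnl2, a splicing factor, read 3.43 and 12.1 (-2.16), and Gmds, which starts the synthesis of GDP-fucose, 3.43 and 9.86 (-1.88). The region between Ms4a6b and Ms4a4d read 3.00 in TAC and 9.67 in Veh/Sham (-2). Zfp280d was the 1 promoter of the 12, with 7.33 in TAC and 19.6 in Veh/Sham and peak depths of 12 and 32 (-1.89; ratio 0.375, counting interval 0.18 to 0.75).

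**Figure D4:**
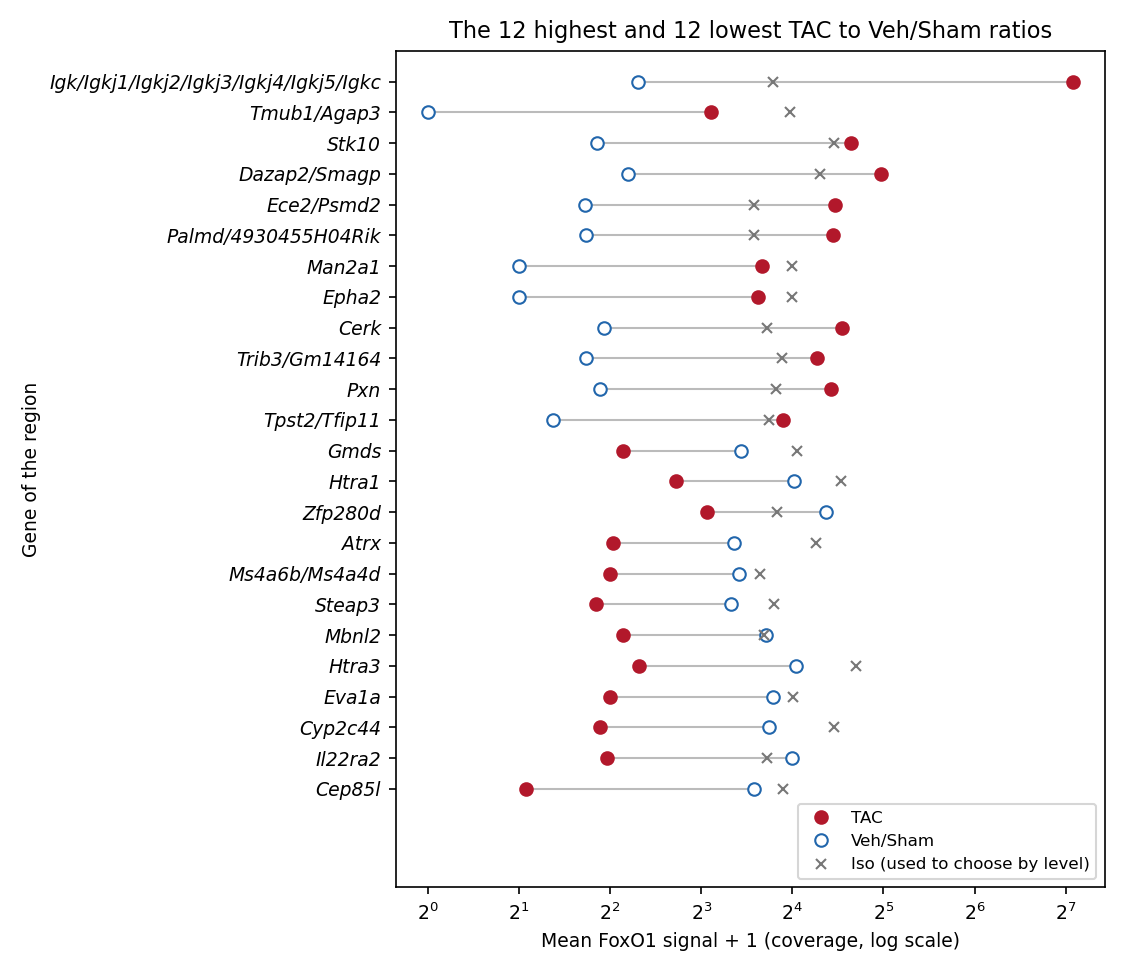
Mean FoxO1 signal plus 1 (log scale) in TAC (filled red), Veh/Sham (open blue) and Iso (grey crosses) for the 12 highest and 12 lowest centred ratios in the upper part of the Iso signal, labelled by their assigned genes. The upper 12 have Veh/Sham signals of 3.94 or less, the lower 12 TAC signals of 7.33 or less, and the kappa light chain region reaches 133.9 in TAC.

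Each region class had its own extremes among the same regions at or above the median Iso signal, which add genes not yet named. Among promoters with an island, the other low end was at Cul2, a cullin that forms the ubiquitin ligase of the von Hippel-Lindau protein, with 7.20 in TAC and 17.6 in Veh/Sham (-1.77). Among promoters without an island, the region between Dand5 and Gadd45gip1 read 2.33 in TAC and 6.89 in Veh/Sham (-1.83), and the start of Nat2, an arylamine acetyltransferase, 2 and 5.38 (-1.67). The low ends of this class had few fragments in either library. In islands outside promoters, Trim27, a ubiquitin ligase, read 15.5 in TAC and 2.17 in Veh/Sham (1.79), and Map3k6, a kinase above the stress kinases, 13.6 and 2 (1.69). At the other end of that class Id3, an inhibitor of helix-loop-helix factors, read 9 in TAC and 14.8 in Veh/Sham (-1.25), and Crygn, a crystallin, 7.79 and 15.1 (-1.46). In gene flanks, a region near Ramp2, which pairs with the adrenomedullin receptor, and Vps25 read 10.8 in TAC and 1.25 in Veh/Sham (1.80). Among regions without a gene, 1 on chromosome 11 (34010829 to 34011056) read 12.3 in TAC and 0 in Veh/Sham (3.15), and 1 on chromosome 3 (109286695 to 109286958) read 0 in TAC and 5.13 in Veh/Sham (-3.20), both with no call in either library. The other extremes of that class were a region on chromosome 7 (134556094 to 134556304) with 17 in TAC and 1 in Veh/Sham (2.58) and 1 on chromosome 2 (61295608 to 61295818) with 1.14 and 9.57 (-2.89).

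Of the genes of the FoxO family, Foxo1, Foxo4 and Foxo6 had no region past 1.5-fold, and Foxo3 was lower in regions deep in the gene. The Foxo1 promoter, printed above, read 19.5 in TAC and 13.8 in Veh/Sham (-0.12), with peak depths of 31 and 19 and a call in both libraries. Further in, the Foxo1 gene read 6.07 in TAC and 2.85 in Veh/Sham 358 bp from the start (0.29), and 19.8 and 9.21 at 1405 bp (0.44). Its ratio was thus lowest upstream of the start and higher inside the gene, the order seen over all regions. The counting intervals of these peak depth ratios overlapped (0.89 to 3.06, 0.81 to 11.8 and 1.08 to 4.53), so depth does not settle the order within Foxo1. Foxo3 had 7 regions. The one 25287 bp into the gene read 21.2 in TAC and 24.0 in Veh/Sham (-0.76), and the one at 71575 bp 8.67 and 11 (-0.90). Nearer the start Foxo3 read 18.1 in TAC and 7.63 in Veh/Sham at 1912 bp (0.56), 13.4 and 8.42 at 1357 bp (0.03) and 17.9 and 14.4 at 345 bp (-0.30). Both regions deep in Foxo3 were lower and no Foxo3 region was 1.5-fold higher. Upstream, Foxo3 read 24.1 in TAC and 14.7 in Veh/Sham at -860 bp (0.09) and 10 and 7.00 at -1785 bp (-0.13). Foxo4 read 15.5 in TAC and 10.6 in Veh/Sham (-0.07) and Foxo6 12.7 and 8.5 (-0.06). The hypertrophy markers Nppa and Nppb (natriuretic peptides) and Myh7 (slow myosin) had 0 regions each, and so had Myh6 and Acta1, which were looked up after the values had been seen.

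For gene families, each gene was given its strongest region over the FoxO1 libraries, and 1 region can serve several genes. Over all 11718 genes with a region the median was -0.05, with 1473 higher (12.6%) and 1717 lower (14.7%), and families are read against these shares. Of 51 lists, 42 had at least 10 members with a region. Leaving out the immunoglobulin genes, whose 10 members lie in 3 regions, their medians were between -0.24 and 0.23. These medians depended on how the region of a gene was chosen: of all 51 lists, 16 changed sign when a gene took the mean of its regions, and 10 with the region nearest its start.

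FoxO target genes leaned to the lower side. Of 39 members with a region, 1 was higher and 8 were lower (2.56% and 20.5%), with a median of -0.14. With the ratio centred within 20 groups of regions by the mean log2 signal of TAC and Veh/Sham, the median was 0.01. These groups use the libraries of the ratio, and the shares higher and lower are not given for this setting. The part of signal level in the lean was not tested. Cdkn1b, the cell cycle inhibitor p27, read 25.5 in TAC and 9.70 in Veh/Sham (0.72), and Ddit4, an inhibitor of mTOR complex 1, 10.2 and 4.20 (0.52, with a call in neither library). Eif4ebp1, a repressor of translation initiation, read 7.43 in TAC and 13.9 in Veh/Sham (-1.40). Insr, the insulin receptor, read 11.3 and 18 (-1.21) in a region 63906 bp into the gene. Among the 43 genes from the insulin receptor to Akt, 4 were higher and 3 lower, with a median of -0.05. The higher ones were led by Akt1, the kinase that phosphorylates FoxO1, with 20 in TAC and 6.71 in Veh/Sham (0.86), and Pik3cb, a catalytic subunit of PI 3-kinase, with 20.4 and 7.13 (0.81). Insr and Eif4ebp1 belong to both lists and were its lowest members.

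Autophagy and lysosome genes also leaned down, and apoptosis genes leaned up. Of 41 autophagy and lysosome genes 3 were higher and 10 lower (7.32% and 24.4%), with a median of -0.20, and of 0.01 when only regions called in TAC or Veh/Sham were kept. Atg5, needed to lipidate LC3, read 18.3 in TAC and 4.94 in Veh/Sham (1.11), and Ctsb, the lysosomal protease cathepsin B, 15.7 and 5 (0.89). Tfe3, a factor that drives lysosomal genes, read 7.29 in TAC and 12.6 in Veh/Sham (-1.30), and Wipi2, which acts at the forming autophagosome, 8.37 and 13.4 (-1.21). Of 37 apoptosis genes 8 were higher and 3 lower (21.6% and 8.11%), with a median of 0.22, which was 0.07 with the region nearest the start of each gene and 0.08 with the mean over its regions. Apaf1, the scaffold of the apoptosome, read 20.9 in TAC and 4.10 in Veh/Sham (1.52), and Bid, which links death receptors to mitochondria, 22 and 5 (1.35). Both regions had a call in TAC alone. Tnfrsf10b, a receptor of the death ligand TRAIL, read 4.67 in TAC and 10.8 in Veh/Sham (-1.65), and Endog, a nuclease of mitochondria, 4.29 and 7.14 (-1.21).

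Genes of the hypertrophy pathways had wide spreads in both directions. Calcineurin and NFAT genes had 5 of 17 higher and 3 lower (29.4% and 17.6%), with a median of 0.23. Rcan3, a modulator of calcineurin, read 15.5 in TAC and 3.88 in Veh/Sham (1.17), and Nfatc1, an NFAT factor, 21.7 and 6.14 (1.08). The subunits of calcineurin itself divided: Ppp3cb, a catalytic subunit, read 11.3 in TAC and 3.64 in Veh/Sham (0.82), while Ppp3ca, the other one, read 14.4 and 19.8 (-1.02) and Ppp3r1, the regulatory subunit, 9.18 and 12.1 (-0.95). Of 24 cardiac transcription factors 7 were higher and 5 lower, with a median of 0.09. Wwtr1, the Hippo pathway coactivator TAZ, read 26.1 in TAC and 5.56 in Veh/Sham (1.46), and Srf, serum response factor, 22 and 6.00 (1.13). Prox1, a homeobox factor, read 5.43 in TAC and 7.57 in Veh/Sham (-1). Both lists had a larger share past 1.5-fold on each side than all genes, but in shorter regions. The median lengths were 434 bp for calcineurin and NFAT genes, 428.5 bp for cardiac factors and 536 bp for all genes. Of all regions of 346 to 486 bp, 19.1% were higher and 18.2% lower. The part of length in these shares was not tested.

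Adrenergic, MAP kinase and immediate early genes showed no lean as lists. Of 32 adrenergic and cAMP genes 4 were higher and 5 lower. Prkar1a, a regulatory subunit of protein kinase A, read 23.9 in TAC and 6.13 in Veh/Sham (1.22), and Adrbk1, the kinase GRK2 that desensitises beta receptors, 23.3 and 6.78 (1.06). Pde3a, a phosphodiesterase of heart muscle, read 3.57 in TAC and 8.57 in Veh/Sham (-1.65), and the adenylyl cyclase Adcy9 5.63 and 9.5 (-1.25). Of 40 MAP kinase cascade genes 4 were higher and 5 lower. Mapk6 read 21.2 in TAC and 4.80 in Veh/Sham (1.35) and Mapk9, the kinase JNK2, 21.4 and 5.60 (1.18), while Araf, a RAF kinase, read 2.14 and 9 (-2.26) in a region on chromosome X that it shares with Timp1 and Syn1. Map3k10, a kinase of the JNK pathway, read 50.6 in TAC and 67.3 in Veh/Sham (-0.99), the highest Veh/Sham mean of the table. Of 27 immediate early factors 1 was higher and 2 were lower, in regions with a median length of 1104 bp. In the longest of the 5 length groups of all regions, 5.67% were higher and 8.09% lower. Nr4a2, a nuclear receptor, read 14.8 in TAC and 5.92 in Veh/Sham (0.60), and Fos 33.7 and 15.2 (0.51). Fosb, a partner of Jun as Fos is, read 24.1 in TAC and 30.4 in Veh/Sham (-0.91), and Klf4 14.1 and 14.5 (-0.62).

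Few sarcomere genes had a region. Of 40 sarcomere, Z-disc and hypertrophy marker genes 15 had one, with 4 higher, 2 lower and a median of 0.10. Tnni3, cardiac troponin I, read 12.5 in TAC and 3.60 in Veh/Sham (0.97) in a region 12354 bp downstream of its start that 2 other genes also hold. Its other region, nearer at -4157 bp, read 10 in TAC and 9.33 in Veh/Sham (-0.50), so the sign for Tnni3 depends on the region taken. Tpm3, a tropomyosin, read 28.7 in TAC and 9.22 in Veh/Sham (0.95). Xirp1, an actin-binding protein of the intercalated disc, read 8.36 in TAC and 13.6 in Veh/Sham (-1.23), and Actn4, an actinin of non-muscle cells, 10.4 and 14.4 (-1.02). Tnni3 was the 1 of 10 cardiomyocyte markers with a region, against 9 of 10 endothelial markers, 3 of 10 fibroblast markers and 0 of 5 liver markers. The median ratio of the endothelial markers was -0.17, with a summed signal of 171.9 in TAC and 114.8 in Veh/Sham. The 3 fibroblast markers had a median of -0.59 (sum 23.8 in TAC and 25.6 in Veh/Sham). Of 8 smooth muscle and pericyte markers 2 had a region, and they went opposite ways. Cnn1 was at least 1.5-fold higher in TAC and Notch3 at least 1.5-fold lower. Their median of -0.79 (sum 18.5 in TAC and 18.1 in Veh/Sham) thus lies between 2 opposite values. The part of these cell types in the ratios of other genes was not tested. Of 20 ion channel and calcium handling genes 2 were higher and 2 lower. Hcn4, the pacemaker channel, read 5.43 in TAC and 1.80 in Veh/Sham (0.61), and Itpr2, a calcium release channel, 8.88 and 11 (-0.87).

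Matrix and growth factor genes held some of the lowest ratios of any list. Of 26 extracellular matrix genes 6 were higher and 7 lower (23.1% and 26.9%), with a median of 0.00. Timp2, an inhibitor of metalloproteases, read 24.9 in TAC and 5.67 in Veh/Sham (1.37), and Ctgf, a matricellular growth factor, 12.1 and 3.22 (1.05). Htra3 was the lowest, followed by Timp1, with 2.14 in TAC and 9 in Veh/Sham (-2.26) in the region shared with Araf. Of 32 BMP and TGF-beta genes 7 were higher and 8 lower, with a median of -0.15. The sign of this median depended on the settings: it was 0.15 without the 25% of regions of lowest Iso signal, and -0.40 with the region of highest Iso signal for each gene. The receptor Acvr2a read 13.5 in TAC and 3.33 in Veh/Sham (1.16) and the signal transducer Smad1 9.18 and 2.18 (1.09). Tgfbr1, the type I receptor of TGF-beta, read 2 in TAC and 5.71 in Veh/Sham (-1.75), and its ligand Tgfb2 2.25 and 5.27 (-1.54). Those low regions had peak depths of 3 to 8 fragments and a call in neither library. Notch genes (25) had 3 higher and 5 lower, with a median of -0.16, and of 0.30 with the mean over a gene's regions: Hey1, a target repressor, read 19.8 in TAC and 3.64 in Veh/Sham (1.58), and Notch3, the receptor of mural cells, 3.29 and 12.0 (-2.19). Of 36 endothelial and angiogenesis genes 3 were higher and 3 lower (median -0.13, and 0.15 with the mean over a gene's regions), with Tal1, a helix-loop-helix factor, at 23.3 in TAC and 5.89 in Veh/Sham (1.23) and Cdh5, VE-cadherin, at 13.1 and 15.1 (-0.78).

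Metabolic lists lay near or slightly under all genes. Of 27 genes of glucose uptake and glycolysis 0 were higher and 4 lower. Gapdh read 19.3 in TAC and 8.55 in Veh/Sham (0.50), and Pkm, pyruvate kinase, 24.3 and 11 (0.49). Tpi1, triosephosphate isomerase, read 8.63 in TAC and 12.1 in Veh/Sham (-1.03), and Pdk4, a kinase that shuts pyruvate dehydrogenase and a known FoxO target, 25.2 and 26.9 (-0.68). Of 68 respiratory chain and ATP synthase genes 9 were higher and 14 lower (13.2% and 20.6%), with a median of -0.14. Ndufa12, a complex I subunit, read 22.1 in TAC and 6.25 in Veh/Sham (1.09), and Atp5g3, a subunit of the ATP synthase ring, 6.47 and 11.9 (-1.37). Mitochondrial ribosomal protein genes (67) had 10 higher and 11 lower, and cytosolic ones (76) 7 higher and 4 lower. Rps21 was the highest cytosolic member, with 19.3 in TAC and 4.13 in Veh/Sham (1.4), and Rpl7l1 the lowest, with 11.4 and 16.7 (-1.11). Of 32 genes of PPAR, ERR and PGC-1 action 4 were higher and 2 lower, led by 1 region shared by the uncoupling protein genes Ucp2 and Ucp3, with 19.3 in TAC and 4.50 in Veh/Sham (1.30). Keap1, which holds Nrf2 in check, was the lowest of 25 antioxidant genes, with 4.67 in TAC and 12.3 in Veh/Sham (-1.82).

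Zinc finger genes, mostly DNA-binding repressors, leaned down. Of 240 Zfp genes with a region 26 were higher and 60 lower (10.8% and 25%), with a median of -0.20. The lower share was larger at promoters without a CpG island, where 21 of 53 were lower (39.62%, median -0.43), than at those with one, where 34 of 159 were (21.4%, median -0.14); all genes had 18% and 13.4% lower in these classes. At promoters without an island the median Iso signal was 19.7 for Zfp genes and 14.9 for all genes. All regions of that class in the highest of the 5 Iso signal groups had a median ratio of -0.26, with 21.6% lower. The part of signal level in the Zfp shares was not tested. The Zfp family also differed between chromosomes. On chromosome 13, 0 of 27 were higher and 11 lower (median -0.34), and on chromosome 17, 6 of 20 were higher and 4 lower (median 0.43). The 240 genes lay in 220 regions, many in clusters of related sequence, where reads can be assigned to another copy. Zfp597 was the highest member, with 20.9 in TAC and 3.55 in Veh/Sham (1.68), followed by Zfp13 with 18.4 and 3.71 (1.46). Zfp318 read 4.83 in TAC and 13.2 in Veh/Sham (-1.87), just above Zfp280d. Other families of transcription factors lay on both sides of 0. The 12 Krueppel-like factors had a median of -0.24, with 0 higher and 2 lower, a share near that of all genes, and the median was 0.04 when a gene took the mean of its regions. The 43 homeobox, Sox, Fox and Tbx genes had a median of -0.21, with 5 higher and 8 lower, while the immediate early factors (0.10) and the cardiac factors given above were over 0. Klf7 read 15.4 in TAC and 22.4 in Veh/Sham (-1.10), and Klf10, the highest of its family, 28.8 and 15.6 (0.26). Foxd2 read 20 in TAC and 3.83 in Veh/Sham (1.53), and Foxp2 2.25 and 5.78 (-1.65).

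**Figure D5:**
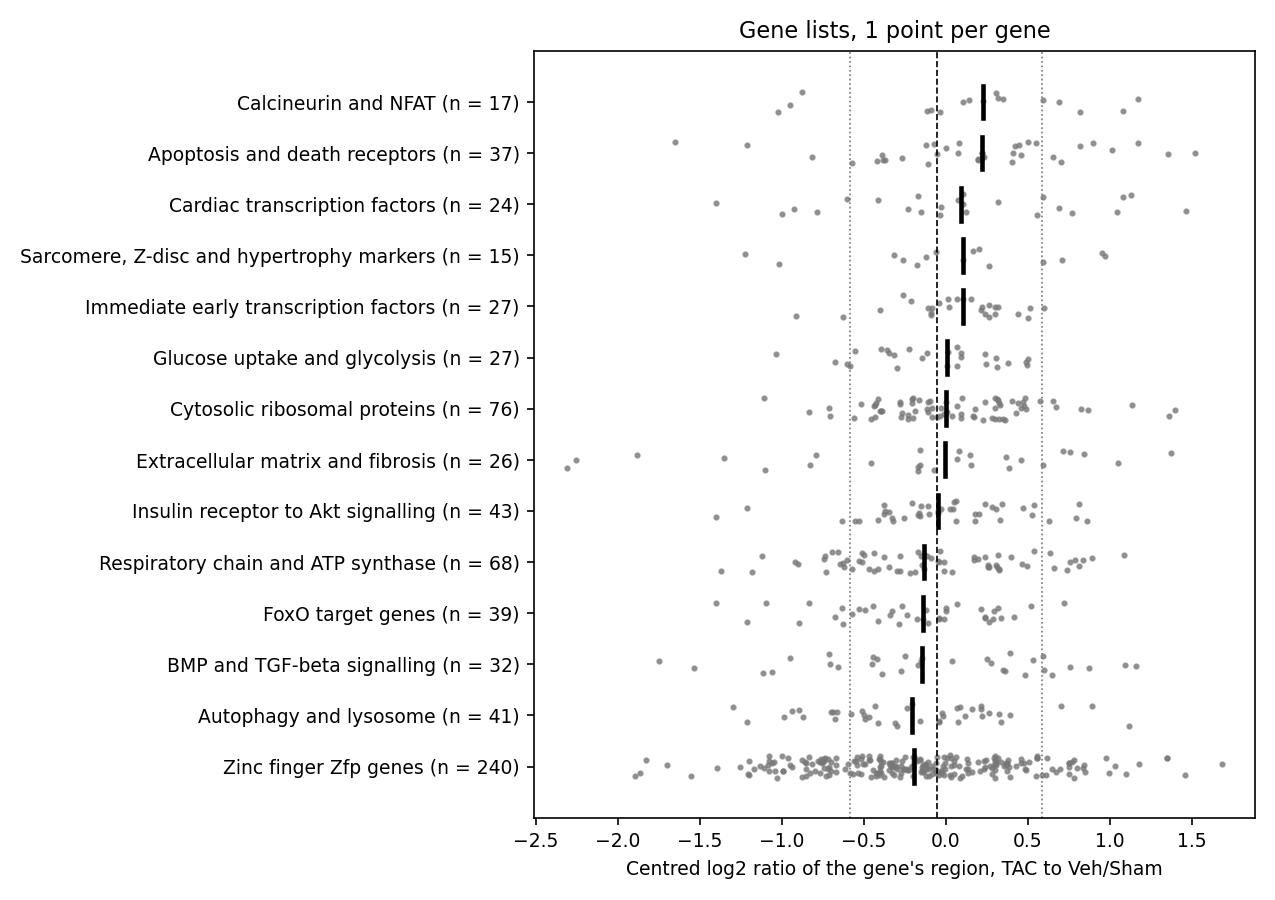
Centred log2 ratio of TAC to Veh/Sham for the genes of 14 lists, 1 grey point per gene, with the median of each list as a black bar. The dashed line is the median of all genes with a region (-0.05) and dotted lines mark 1.5-fold; medians run from -0.20 for autophagy and lysosome genes and for Zfp genes to 0.23 for calcineurin and NFAT, and the points of every list lie on both sides of 0.

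Lists of basal cell functions held single members with large ratios. The medians of those described next lay between -0.09 and 0.07 except for the circadian clock (-0.21) and hypoxia (-0.19) genes. Others outside that range were Rab GTPase and endosomal sorting genes (-0.16), protein phosphatase subunits (-0.13), splicing and RNA-binding proteins (-0.11) and chaperones (0.10). In the cell cycle list, 6 of 51 genes were higher and 3 lower, led by Ccnb1, cyclin B1, with 20.5 in TAC and 1.33 in Veh/Sham (2.62; peak depths 22 and 2) and Cdkn2a, which encodes p16 and p19Arf, with 11.5 and 2.67 (1.18). E2f6, a repressor of the E2F family, read 10.3 in TAC and 15.6 in Veh/Sham (-1.14). Among 72 deubiquitinases and ubiquitin conjugating enzymes 6 were higher and 14 lower; Usp25 had 19.0 in TAC with Veh/Sham listed at 0, and Otud3 read 4.67 and 13.7 (-1.96). Proteasome genes had 5 of 42 on either side, from Psmd2 to Psmg4, an assembly factor, with 9.10 in TAC and 16.8 in Veh/Sham (-1.40). Among 81 translation genes 9 were higher and 11 lower, led by Eif4g1, the scaffold of the cap-binding complex, whose region 23392 bp downstream of its start read 23.3 in TAC and 2.50 in Veh/Sham (2.21) and is shared with 2 other genes. Chromatin modifiers (92 genes) had 8 higher and 10 lower, from Kdm2b, a histone demethylase, with 22.1 in TAC and 4.73 in Veh/Sham (1.42), to Kdm1b with 9.38 and 12.2 (-0.93). Circadian clock genes (22) had 1 higher, Per2 with 25.3 in TAC and 9.76 in Veh/Sham (0.70), and 2 lower, of which Nr1d2, the repressor Rev-erb beta, read 22.1 and 24.1 (-0.70). Hypoxia genes (21) had 3 on either side, from Tceb2, elongin B, with 19.2 in TAC and 5.18 in Veh/Sham (1.12), to Cul2, given above.

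MicroRNA genes had shares past 1.5-fold near those of all genes (12.6% higher and 14.7% lower). Of 161 with a region, in 131 distinct regions, 25 were higher and 21 lower (15.5% and 13%), with a median of 0.12. Mir143 and Mir145, which are expressed in smooth muscle, share a region downstream of their starts that read 19.3 in TAC and 3.67 in Veh/Sham (1.54). The lowest were Mir5133, with 7.18 in TAC and 12.7 in Veh/Sham (-1.33), and Mir5116, with 5.73 and 9.46 (-1.22). Mature sequences of some members of both ends follow, from RefSeq (GRCm38.p6), with the seed (bases 2 to 8) in capitals. They are examples and say nothing about the seeds of the other members. Mir1955, Mir804 and Mir17 were added after the values had been seen.
mmu-miR-1955-5p: aGUCCCAGgaugcacugcagcuuuu
mmu-miR-804: uGUGAGUUguuccucaccugga
mmu-miR-17-5p: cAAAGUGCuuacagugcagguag
mmu-miR-5116: uUUGAUAGgaaccccgccuga
mmu-miR-5133: gCUGGAGCugcggcagcgcag
Mir1955 had 23.0 in TAC and 4.71 in Veh/Sham (1.48) and Mir804 18.2 and 3.78 (1.42). Mir17, of the cluster that promotes proliferation, had 9.11 in TAC and 11.9 in Veh/Sham (-0.94). These regions lay upstream of the microRNA starts, at -179 bp for Mir5133, -3250 bp for Mir17 and -10176 bp for Mir5116.

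The shares of promoter windows with each motif at both ends of the ratio are given without a test. Of the RefSeq windows of 300 bases, 5006 overlapped a region by at least 150 bp, 509 of them over a higher region and 727 over a lower one. GTAAACA was in 2.75% of the higher, 2.61% of the lower and 3.79% of the other windows, against 3.65% of all 32851 windows. GTAAATA was in 1.18% of the higher and 1.24% of the lower windows, against 3.04% of all, and CAAAACA in 4.13% and 3.03%, against 6.28%. Over all windows that overlapped a region the shares were 3.52% for GTAAACA, 1.26% for GTAAATA and 3.74% for CAAAACA. None was above its share in all windows, but windows over a region are richer in G and C, as given below. These shares were not adjusted for base composition, so a forkhead excess beyond composition was not tested. CCGGAAG was in 22.8% of the higher and 20.9% of the lower windows, against 8.86% of all, and GGGCGG, the Sp and Klf motif, in 66.0% and 67.1%, against 35.7%. Windows over a region had a median of 62.33% G and C and 23 CpG, against 52.67% and 7 in all windows, so the base composition differed along with these shares and its part was not tested. CCAAT was in 40.47% of the higher and 34.8% of the lower windows, against 37.4% of all, and TGANTCA in 5.11% and 3.16%, against 7.81%, in 26 and 23 windows. CACGTG was in 11.2% of the higher and 12.0% of the lower windows, against 7.15% of all, TGACGTCA in 4.52% and 3.99%, against 1.79%, and TATAAA in 5.11% and 6.05%, against 13.6%. The 176 windows with GTAAACA had a median ratio of -0.09, and the 4830 without it -0.07. A match is a run of letters and not a bound site.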

How the data were processed

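FoxO1 ChIP-seq libraries were made from mouse hearts, 1 per condition, each from 3 pooled hearts, per the labels' protocols. Per the submitters' processing notes, BWA, SICER and mm10 were involved; neither roles nor versions are stated there. The authors deposited a table of merged regions with a mean signal (coverage), a peak depth and an interval call per library; the sources used here give no scaling between libraries. A further 6 value columns, for 2 libraries with no matching sample, were not used. Genes, distances and CpG islands were taken from the table, with coordinates as given there.

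Log2 ratios of mean signal used a pseudocount of 1, which understates the ratio of low regions, and were centred on their median. The 1.5-fold rule is one of size, not a test; with no replicate libraries no p-value was computed. Intervals of peak ratios are exact 95% counting intervals, and without molecular identifiers fragments may be copies of 1 molecule. A gene's region was its strongest by the mean of the 3 FoxO1 libraries. Regions up to 1000 bp from a start site were called promoters. The text names the 12 highest and 12 lowest ratios of regions that reached the median Iso signal (1 per gene, no predicted symbols). Under the same filter it names the 2 highest and 2 lowest of each class. Without that filter it names the 2 highest and 2 lowest of each list described, the FoxO genes, Nppa, Nppb, Myh7 and immunoglobulin genes. Others are said to be chosen after their values were seen. A few genes that this rule names are not reported here. Of 11718 symbols, 10636 matched a RefSeq symbol of GRCm38.p6 and 8287 had a promoter window. The comparison, the members and the lists were chosen with earlier results of these data known, and patterns of 2 lists (immunoglobulin and translation genes) were corrected for stray symbols after the data were seen. Alternatives were peak depth, other pseudocounts, folds, centrings, region sets and choices of a gene's region. The code was tested on simulated data. Software was Python 3.11.15 with scipy 1.17.1, pandas 2.3.3, matplotlib 3.10.9 and numpy 2.4.6.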

Additional observations from a re-analysis of the deposited data

How the results depend on the processing

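The counts of higher and lower regions depended on the settings: 1665 and 1698 with a pseudocount of 5, 1930 and 1783 without the 25% of regions of lowest Iso signal, 1962 and 1695 in regions called in TAC or Veh/Sham, 8103 and 674 without centring, and 1239 and 1022 at 2-fold. With peak depth they were 2846 and 2636, and without chromosomes X and Y, a setting chosen after seeing the data, 2915 and 2687. Without centring the class medians were 0.55 (promoters with an island), 0.58 (promoters without), 0.62 (islands elsewhere), 0.77 (gene bodies near the start), 0.64 (distal gene bodies), 0.65 (flanks) and 0.56 (no gene), so the classes under 0 turned positive, which keeps their differences by construction; the highest of the 5 Iso signal groups then had 0.45. Gene bodies near the start stayed above 0 in every setting run, with 0.12 for a pseudocount of 5 and 0.12 without the lowest 25%. Promoters with an island were at -0.013 with a pseudocount of 5, -0.019 without the lowest 25% and -0.014 in called regions. They were at -0.012 centred within 20 groups by the mean log2 signal of TAC and Veh/Sham, and at -0.0030 centred on regions called in both libraries. Distal gene bodies were at 0.0065, 0.0034 (called regions), 0.0035 (20 groups) and 0.079 (regions called in both). In called regions, promoters without an island were at -0.069, islands elsewhere at 0.083 and regions with no gene at -0.10; with promoters of 5000 bp, promoters without an island were at 0.074 and islands elsewhere at -0.038. The lowest Iso signal group turned to -0.015 with a pseudocount of 5, -0.0034 in called regions and -0.029 centred within 20 groups. Of 51 list medians, 34 changed sign without centring, among them those of liver markers (0.17), Zfp genes (0.39), homeobox, Sox, Fox and Tbx genes (0.37), splicing genes (0.48), Rab genes (0.43) and phosphatase subunits (0.46). With the mean over a gene's regions 16 changed sign, among them Notch (0.30), endothelial (0.15) and phosphatase genes (0.087), and under the other settings between 4 and 11. The cause of these changes was not tested beyond the construction of each setting. No paired analysis was possible because each condition had 1 library. Motifs in the sequence of the deposited regions were not run, since no genome was used here. Depth limits single ratios: 24.53% of higher and 20.32% of lower regions had counting intervals clear of the shared shift.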

Other observations

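Chromosome X stood lowest of the chromosomes with more than 1 region. Its 215 regions had a median ratio of -0.21, with 24 higher and 63 lower in TAC, against medians between -0.10 (chromosome 13) and 0.08 on the other chromosomes. Median signal on X was 9.55 in TAC and 7.75 in Veh/Sham, and on autosomes 14.0 in TAC and 8.73 in Veh/Sham. Within promoters with a CpG island the median was -0.22 for 117 regions on X and -0.03 for 7424 on autosomes. Promoters without an island (30 regions on X) had -0.50, and islands elsewhere (28) -0.21. Atrx, Tfe3, Araf and Timp1, described above, are among its low members.

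Some genes with several regions had all of them on 1 side of 0. Of 1260 genes with at least 4 regions, 110 had every region above 0 and 39 every region below it. These counts were not set against the number that unrelated regions would give. Some of the genes share the same regions, as Irs1 and Gm19537 do. Among those above, picked after their values were seen, Bahcc1, a gene expressed in brain, had 11 regions with ratios from 0.13 to 2.81; its highest, 47660 bp into the gene, read 20 in TAC and 1 in Veh/Sham. Rnf216, a ubiquitin ligase, read 18.6 in TAC and 2.50 in Veh/Sham 578 bp from its start (1.90). Sema6b, a semaphorin, had 6 regions between 0.59 and 1.53. Hook2, a microtubule adaptor next to Junb, had ratios from 0.49 to 1.34 in its 5 regions.

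Among genes below 0 throughout, the 3 described here were also picked after their values were seen; the list from the insulin receptor to Akt as a whole had a median of -0.05. Irs1, an adaptor of the insulin receptor, read 5.89 in TAC and 9.11 in Veh/Sham at -56 bp from its start (-1.14), 6.11 and 8.56 at 491 bp (-1.01), 10.3 and 11.5 at 888 bp (-0.74), and 25.5 and 18 at 8058 bp (-0.11). Insr had its promoter region at 16.5 in TAC and 10.9 in Veh/Sham (-0.03), and regions deep in the gene at 15.0 and 15.3 (-0.61) and at 5.46 and 5.91 (-0.68) beside the one named above. Adamts9, a secreted metalloprotease, had its lowest region 31886 bp into the gene, with 4.76 in TAC and 8.72 in Veh/Sham (-1.34).

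Neighbouring regions shared little of their ratio. Over 3184 pairs less than 1000 bp apart Pearson's r was 0.08, over 1416 pairs from 1000 to 5000 bp apart 0.14, and over 4923 pairs from 20000 to 100000 bp apart 0.03. These are correlations across regions of the same 2 libraries, which are not replicates, and so weak a correlation is given as a description.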
